A study of Mus musculus with 5 samples.

Results

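The 9 genes of the mouse HoxC cluster (Hoxc4, Hoxc5, Hoxc6, Hoxc8, Hoxc9, Hoxc10, Hoxc11, Hoxc12 and Hoxc13) were taken by name from the 22350 protein-coding genes that GENCODE vM1 places on the autosomes and the X chromosome of NCBIM37 (mm9). A gene was given a RING1B peak when a peak overlapped its body or came within 5000 bases of its 5′ end. Peaks came from ChIP-Seq with a Ring1b antibody in mouse embryonic fibroblasts (MEFs) grown as a line from a mouse embryo in which loxP sites flank part of the EED gene. 3 groups with 1 library each were used. The control was the parental line with its EED alleles floxed, and the other lines were that same line after lentiviral transduction with human EZHIP or with H3.3 K27M. The H3.3 K27R and EED deletion samples were not analysed here.

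RING1B is the E3 ligase subunit of Polycomb Repressive Complex 1 (PRC1), which places ubiquitin on histone H2A and compacts chromatin. One form of PRC1 binds H3K27me3 through its CBX subunit, and H3K27me3 is the mark written by PRC2. EZHIP and H3.3 K27M both inhibit PRC2. Hox genes are classic Polycomb targets that encode homeodomain transcription factors, and their order along a cluster matches the order in which they are used along the body axis, with genes at the 5′ end acting most posteriorly. The comparison asks where along the HoxC cluster RING1B was found when PRC2 was inhibited.

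There were 821 control peaks, 311 EZHIP peaks and 286 H3.3 K27M peaks. The study states that RING1B did not change in number or general distribution with EZHIP or H3.3 K27M, whereas these lists differ in number. The narrowest control peak spanned 1199 bases and the narrowest peak of each of the other lists 399 bases. The lists carry no read count or score, so depth is unknown, and with 1 library per group no difference below has a replicate check or a p-value. Peak lists hold no expression values, so the fibroblast label could not be checked on marker levels. Of 10 fibroblast marker genes, Pdgfra, which encodes a growth factor receptor, had a peak in the control and EZHIP lists, and the other markers had none in any list.

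All 9 HoxC genes had a RING1B peak in control cells, 7 had one with EZHIP and 5 with H3.3 K27M. Among all protein-coding genes, 3.81% met the same rule in control cells, 1.32% with EZHIP and 1.21% with H3.3 K27M. In both transduced lines coverage was continuous from upstream of Hoxc13 into Hoxc9, and the only coverage beyond was a peak of 399 bases in the EZHIP list. In the control list as deposited it was continuous into Hoxc6, and 2 further peaks separated by gaps lay between there and the 3′ end of the cluster. Hoxc8 and Hoxc6 had a peak in the control list alone, while Hoxc5 and Hoxc4 had one in the control and EZHIP lists. With EZHIP both genes met the rule through the peak of 399 bases alone. With peaks of at least 1000 bases the count was 5 in both transduced lines. Neighbouring genes often lay under the same peak, so the 9 genes do not count as 9 separate observations.

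The interval from the start of Hoxc13 to the end of Hoxc4 spans 115741 bases at chromosome 15, 102751534 to 102867274. Of these, peaks covered 90464 (78.2%) in control cells, 62265 (53.8%) with EZHIP and 63066 (54.5%) with H3.3 K27M. Relative to the control, coverage was 0.688 times as long with EZHIP and 0.697 times as long with H3.3 K27M. Over all peaks of the lists the corresponding ratios were 0.329 and 0.418. The interval leaves out the covered bases upstream of Hoxc13, which numbered 25533 in the control, 18733 with EZHIP and 14133 with H3.3 K27M. The control coverage was made of 3 peaks, the EZHIP coverage of 2 peaks and the H3.3 K27M coverage of 1 peak.

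**Figure D1:**
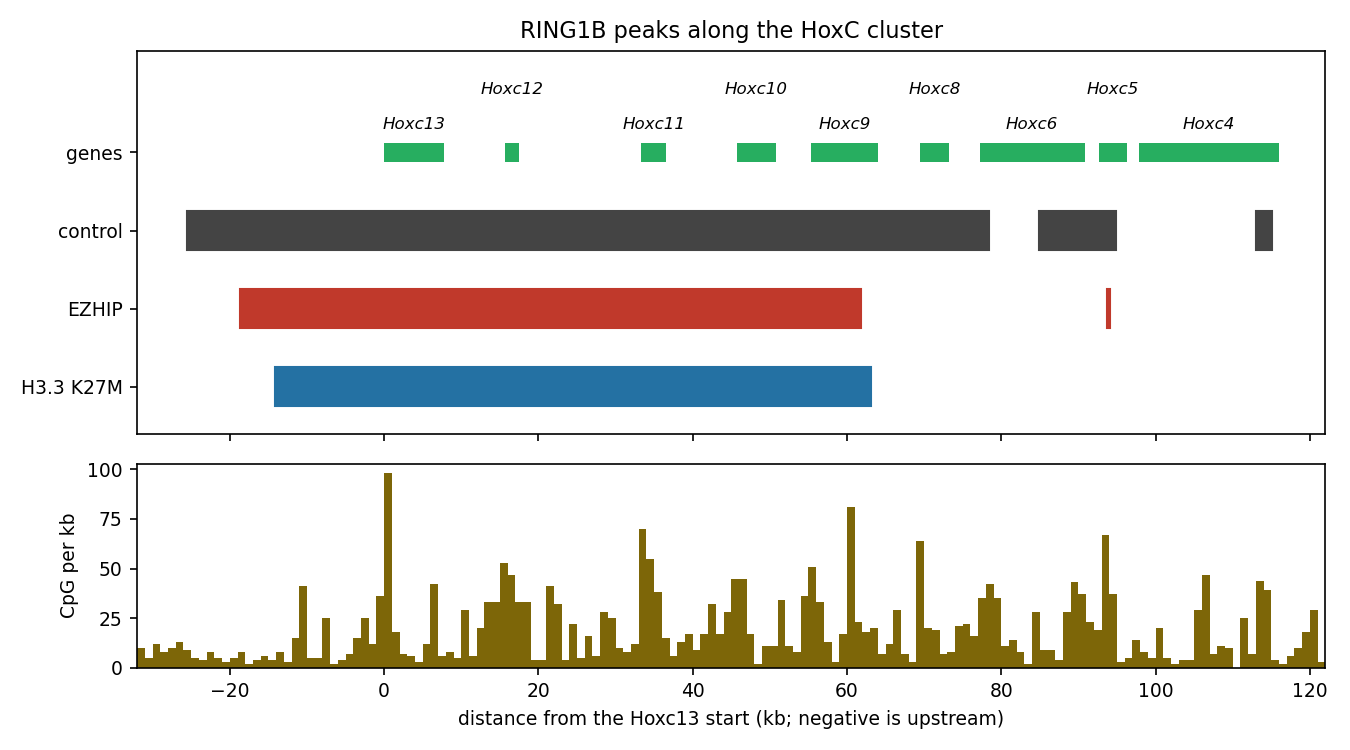
RING1B peaks of each list (bars) below the 9 HoxC gene bodies (green), against distance from the Hoxc13 start in kb, with the number of CpG dinucleotides in each kb underneath. The main peak of both transduced lines ends inside Hoxc9, while the control peak reaches into Hoxc6 and is followed by 2 further peaks.

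The 5′ edge of the domain lay in intergenic sequence upstream of Hoxc13 in each list, and moved inward in both transduced lines. The control peak began at 102726001, which is 25533 bases upstream of the Hoxc13 start. The EZHIP peak began at 102732801, or 18733 bases upstream, and the H3.3 K27M peak at 102737401, or 14133 bases upstream. The first covered base was thus 6800 bases closer to Hoxc13 with EZHIP and 11400 bases closer with H3.3 K27M, and the edges of the transduced lines were 4600 bases apart. Edges can only fall on the 200-base bins from which the peaks were built.

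The sequence at the 5′ edge was poor in CpG, the dinucleotide that marks CpG islands. The first 200 bases of the main peak of each list (mm9, + strand, CpG in capitals) are shown because they are the point at which coverage begins.
Control, chr15:102726001-102726200: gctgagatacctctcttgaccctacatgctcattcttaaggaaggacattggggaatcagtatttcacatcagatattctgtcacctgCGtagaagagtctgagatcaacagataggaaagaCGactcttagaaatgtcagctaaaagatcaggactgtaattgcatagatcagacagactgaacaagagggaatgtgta
EZHIP, chr15:102732801-102733000: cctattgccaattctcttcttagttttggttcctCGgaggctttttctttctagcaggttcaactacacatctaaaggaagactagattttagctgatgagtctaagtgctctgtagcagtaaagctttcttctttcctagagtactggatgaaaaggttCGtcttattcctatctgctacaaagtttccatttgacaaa
H3.3 K27M, chr15:102737401-102737600: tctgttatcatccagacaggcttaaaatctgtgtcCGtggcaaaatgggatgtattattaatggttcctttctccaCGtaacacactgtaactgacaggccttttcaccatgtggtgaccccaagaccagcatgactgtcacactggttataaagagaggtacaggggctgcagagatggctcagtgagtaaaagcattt
Each of these stretches held 2 CpG, at a G and C content of 41.5%, 38.5% and 45.0%. The 6800 bases covered by the control alone at this side held 5.00 CpG per kb and the next 4600 bases, covered by the control and EZHIP lists, 4.35 per kb. Chromosome 15 as a whole held 8.66 per kb and the HoxC interval 21.5 per kb.

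From Hoxc13 to Hoxc10 coverage was complete in each of the 3 lists. Hoxc13, which is required in the hair follicle and nail, Hoxc12, Hoxc11 and Hoxc10, which act at hindlimb and lumbosacral levels, had 100% of the gene body and 100% of the 5000 bases on each side of the start covered in each list. The spacers between them were covered along their whole length as well, the longest being the 15817 bases between Hoxc12 and Hoxc11. That spacer holds Gm16258, which RefSeq names Hotair, a long non-coding RNA transcribed from the opposite strand, and it too was covered over 100% of its length in each list.

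The spacer of 4545 bases between Hoxc10 and Hoxc9 was also fully covered in each list. It contains Mir196a-2, a microRNA gene whose product is known to target Hoxb8. Its mature arms are given from RefSeq, as RNA with the seed (bases 2 to 8) in capitals, because this is one of the 2 microRNA genes of the cluster and the one inside the domain shared by the lists. By exact match to mm9 the 5p arm lies at chromosome 15, 102803796 to 102803817, on the + strand.
mmu-miR-196a-5p: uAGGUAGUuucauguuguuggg
mmu-miR-196a-2-3p: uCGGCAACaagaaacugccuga

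Hoxc9, which sets thoracic identity in motor neurons and the skeleton, was the gene at which the transduced lines and the control parted. Its body of 8661 bases (102806870 to 102815530) was covered over 100% in control cells, 75.4% with EZHIP and 89.3% with H3.3 K27M. Both of its annotated transcript starts lay inside the peak in each list. The EZHIP peak ended at 102813399, in an intron of Hoxc9 and 6530 bases past its start. The H3.3 K27M peak ended at 102814599, in an exon annotated as UTR and 7730 bases past the start. These ends were 1200 bases apart, and lay 16600 and 15400 bases before the end of the main control peak.

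The last 200 bases of the main EZHIP peak and of the main control peak (mm9, + strand, CpG in capitals) show the sequence at which these domains stopped. That of H3.3 K27M falls in UTR sequence and is not shown.
EZHIP, chr15:102813200-102813399: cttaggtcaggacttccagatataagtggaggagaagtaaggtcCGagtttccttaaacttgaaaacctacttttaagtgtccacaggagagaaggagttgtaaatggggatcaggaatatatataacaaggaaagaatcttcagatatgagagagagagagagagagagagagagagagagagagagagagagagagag
Control, chr15:102829800-102829999: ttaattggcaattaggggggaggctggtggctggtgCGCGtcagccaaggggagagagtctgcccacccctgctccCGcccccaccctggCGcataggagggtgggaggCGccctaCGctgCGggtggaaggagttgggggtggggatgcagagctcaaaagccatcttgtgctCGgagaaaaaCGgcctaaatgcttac
The EZHIP stretch held 1 CpG and ran into an alternating G and A repeat of 64 bases, of which 51 lay inside the peak and 13 beyond it. Reads within such a repeat can be hard to place, and its part in the position of this edge was not tested. The control stretch, in an intron of Hoxc6, held 9 CpG.

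Downstream of Hoxc9 the transduced lines had almost no coverage. From the end of Hoxc9 to the end of Hoxc4, a stretch of 51744 bases set off after the edges were seen, control peaks covered 26467 bases (51.1%), EZHIP peaks 399 bases (0.771%) and H3.3 K27M peaks 0 bases. From the start of Hoxc13 to the end of Hoxc9 the corresponding shares were 100%, 96.7% and 98.5%. The difference between the control and the transduced lines inside the interval therefore fell almost wholly in the 3′ stretch.

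Hoxc8, a regulator of brachial and thoracic patterning, was the first gene without a peak in both transduced lines. Its body of 3646 bases (102821053 to 102824698) was covered over 100% in the control and 0% in both transduced lines. Its start was 7654 bases from the nearest EZHIP peak and 6454 bases from the nearest H3.3 K27M peak, so that it fell outside the limit of 5000 bases. The spacer of 5522 bases between Hoxc9 and Hoxc8 was covered over 100% in the control and 0% in the other lists.

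Hoxc6, which is used at brachial and anterior thoracic levels, was covered in part in the control and not at all in the transduced lines. Control peaks covered 53.0% of its body of 13625 bases (102828688 to 102842312). The main control peak ended in its first part, at 102829999, a gap of 6401 bases followed, and a second control peak ran from 102836401 to 102846399. That gap is shorter than the maximum gap that the methods of the study state for joining Ring1b peaks. With peaks within 10000 bases merged, a setting chosen for single genes after seeing the data, control coverage of Hoxc6 was 100% and the continuous control stretch ran on into Hoxc5, to 102846399. The starts of the transcripts Hoxc6-002 and Hoxc6-001 lay in control peaks, and that of Hoxc6-003, at 102830960, lay in the gap. Its gene start was 15289 bases from the nearest EZHIP peak and 14089 bases from the nearest H3.3 K27M peak.

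Hoxc5, which is used at cervical and brachial levels, kept a narrow peak in the EZHIP list and none in the H3.3 K27M list. Its body of 3615 bases (102844246 to 102847860) was covered over 59.6% in control cells, 11.0% with EZHIP and 0% with H3.3 K27M. The start of Hoxc5 lay in the control peak and 955 bases upstream of the EZHIP peak, while the nearest H3.3 K27M peak was 29647 bases away. The EZHIP peak spanned 399 bases, the narrowest width in its list and narrower than any control peak. It was also below the minimum peak size that the methods of the study state for Ring1b, which every control peak met and some peaks of both other lists did not. The presence of a peak at Hoxc5 and Hoxc4 with EZHIP rests on it alone.

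That narrow peak lay in the intron of Hoxc5 over Mir615, the other microRNA gene of the cluster, and its sequence is shown because it was the only EZHIP coverage 3′ of Hoxc9. The mature arms, from RefSeq with the seed in capitals, share no seed with each other or with the arms of Mir196a-2.
mmu-miR-615-5p: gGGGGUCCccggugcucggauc
mmu-miR-615-3p: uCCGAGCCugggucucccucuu
The middle 300 bases of the peak (mm9, + strand) carry both arms, here in capitals as DNA.
EZHIP peak, chr15:102845250-102845549: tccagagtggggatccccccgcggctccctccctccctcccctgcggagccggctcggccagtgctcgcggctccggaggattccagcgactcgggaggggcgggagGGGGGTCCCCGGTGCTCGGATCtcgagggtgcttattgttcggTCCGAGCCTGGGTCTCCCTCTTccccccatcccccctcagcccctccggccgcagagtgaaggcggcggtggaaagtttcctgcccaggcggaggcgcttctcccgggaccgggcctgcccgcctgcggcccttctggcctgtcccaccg
The whole peak held 30 CpG in 399 bases at a G and C content of 69.9%, which corresponds to 75.2 CpG per kb against 21.5 per kb over the interval. All of it lay in CpG-island-like sequence, defined as 500-base windows with a G and C content of 55% or more and a CpG ratio, observed over expected, of 0.65 or more.

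Hoxc4, the most 3′ gene of the cluster and used at cervical and upper thoracic levels, had the least coverage of the 9 genes in the control. Control peaks covered 11.2% of its body of 17908 bases (102849367 to 102867274), EZHIP peaks 0% and H3.3 K27M peaks 0%. Its gene start lay in no peak of any list, in a control gap of 18201 bases between 102846400 and 102864600. The start of its shorter transcript Hoxc4-002, at 102864826, lay in the third control peak, from 102864601 to 102866599. Hoxc4 met the rule in the EZHIP list only because the peak over Mir615 ended 3768 bases upstream of its start, and the nearest H3.3 K27M peak was 34768 bases away.

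**Figure D2:**
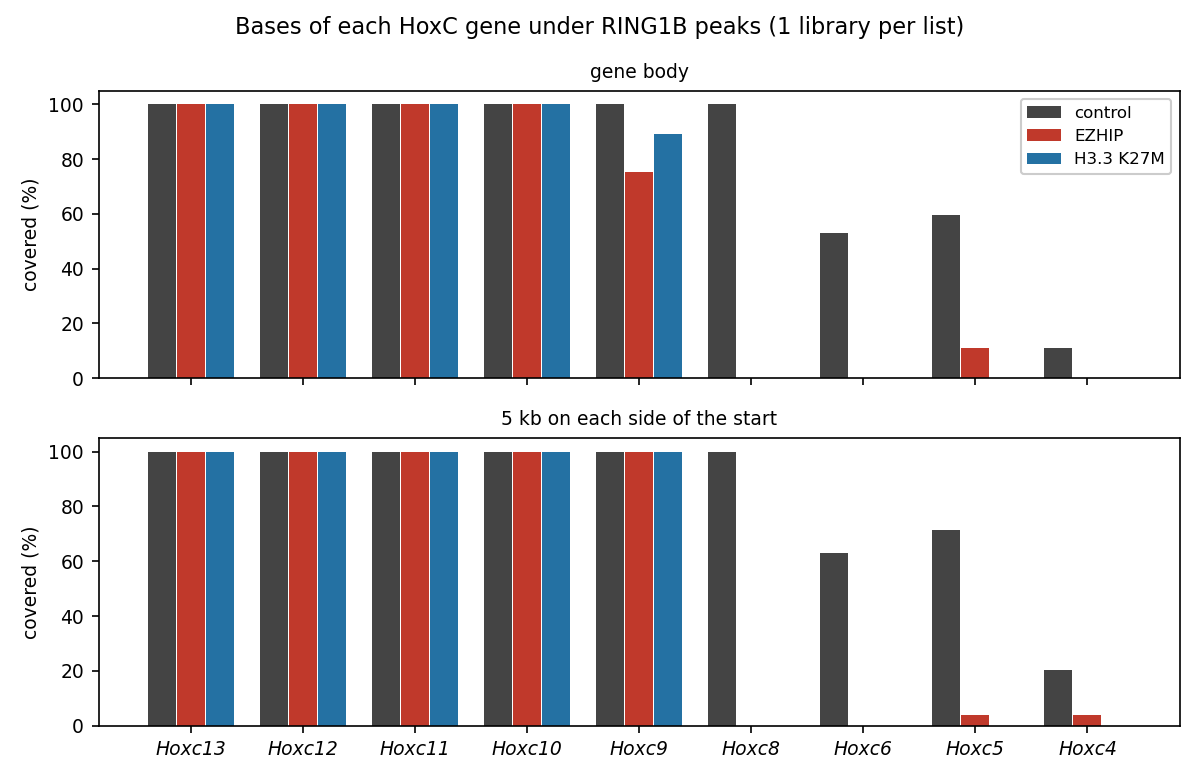
Percentage of each gene body (upper bars) and of the 5 kb on each side of each gene start (lower bars) under RING1B peaks in each list, with genes in their order along the chromosome. Hoxc13 to Hoxc10 stand at 100% in each list, and Hoxc8 at 100% in the control and 0% in both transduced lines.

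**Figure D3:**
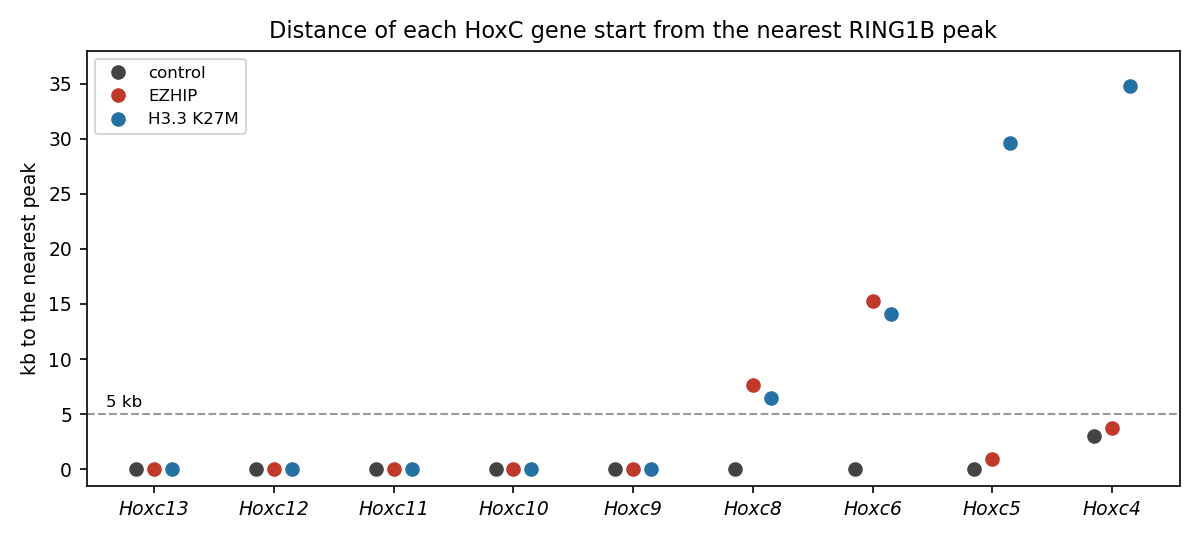
Distance in kb from each gene start to the nearest RING1B peak of each list, with 0 for a start inside a peak and a dashed line at the 5 kb limit. The starts of Hoxc8 and Hoxc6 lie beyond the limit in both transduced lines, and those of Hoxc5 and Hoxc4 in the H3.3 K27M list.

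The gene starts themselves showed the same pattern. The start lay in a control peak for 8 of the 9 genes, and both transduced lines had a peak at the start of the same 5 genes, Hoxc13, Hoxc12, Hoxc11, Hoxc10 and Hoxc9. Among all protein-coding genes, 2.82% of starts lay in a control peak, 0.595% in an EZHIP peak and 0.743% in an H3.3 K27M peak. A start in a peak of all 3 lists was found for 83 protein-coding genes, of which these 5 are part. Hoxc8, Hoxc6 and Hoxc5 were among the 447 genes whose start lay in a peak of the control list alone.

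A smaller share of HoxC genes than of all genes with a control peak was without a peak in the transduced lines. Of the 9 HoxC genes with a control peak, 2 had none with EZHIP and 4 had none with H3.3 K27M, against 70.7% and 71.4% of the 851 protein-coding genes with a control peak. Without EZHIP peaks under 1000 bases, which removes the peak over Mir615, 4 of the 9 had none with EZHIP, the same number as with H3.3 K27M. The share of all genes was not recomputed without those peaks, so this count has no matching background. Of the 8 HoxC starts in a control peak, 3 lay in no EZHIP peak and 3 in no H3.3 K27M peak, against 82.4% and 75.3% of 631 genes. The control peak over Hoxc13 to Hoxc6 was the widest of its list, at 103999 bases, and the shares for all genes include genes under much narrower peaks. By the same rule, HoxA had 8 genes with a peak in the control, 5 with EZHIP and 2 with H3.3 K27M. In that order the counts were 8, 4 and 2 at HoxB and 7, 4 and 5 at HoxD.

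Pooled over the interval, CpG density was the same in the bases shared by the lists and in those of the control alone, but single segments differed. Within the interval, the 61866 bases covered in all 3 lists held 23.7 CpG per kb, and 16.4% of these bases were island-like. The 26999 bases covered in the control alone also held 23.7 CpG per kb, with 14.1% island-like. They came from 4 segments, of which the longest (15400 bases) held 20.1 CpG per kb and the others 24.5, 38.8 and 41.0. Outside the interval, the 6800 bases of the control alone upstream of Hoxc13 held 5.00 per kb. The whole stretch shared by the lists, with its part upstream of Hoxc13, held 22.0 per kb. The 25277 bases covered in no list held 12.9 CpG per kb, with 3.56% island-like.

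Of the 15 island-like stretches in the interval, 14 had a covered base in control cells, 11 with EZHIP and 10 with H3.3 K27M. The Hoxc8 start, without a peak in the transduced lines, lay in such a stretch and had 65 CpG in the surrounding 1000 bases. The starts of Hoxc13, Hoxc12, Hoxc11, Hoxc10 and Hoxc9, covered in each list, had from 49 to 75 CpG and lay in such stretches too. The starts of Hoxc6, Hoxc5 and Hoxc4 did not, and had 33, 30 and 17 CpG.

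The other Hox clusters were set beside HoxC. The HoxC interval had the highest share of bases covered in each list, and this held in each of the 4 alternative selections of peaks. In the control, 58074 of the 105509 bases of the HoxA interval were covered, with 51.1% of the HoxB and 35.4% of the HoxD interval. With EZHIP the shares at HoxA, HoxB and HoxD were 32.7%, 24.7% and 23.8%, and with H3.3 K27M they were 13.5%, 19.5% and 26.1%. Relative to the control, EZHIP coverage was 0.594 times as long at HoxA, 0.483 at HoxB and 0.673 at HoxD, compared with 0.688 at HoxC. H3.3 K27M coverage was 0.246 times as long at HoxA, 0.382 at HoxB and 0.737 at HoxD, compared with 0.697 at HoxC.

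**Figure D4:**
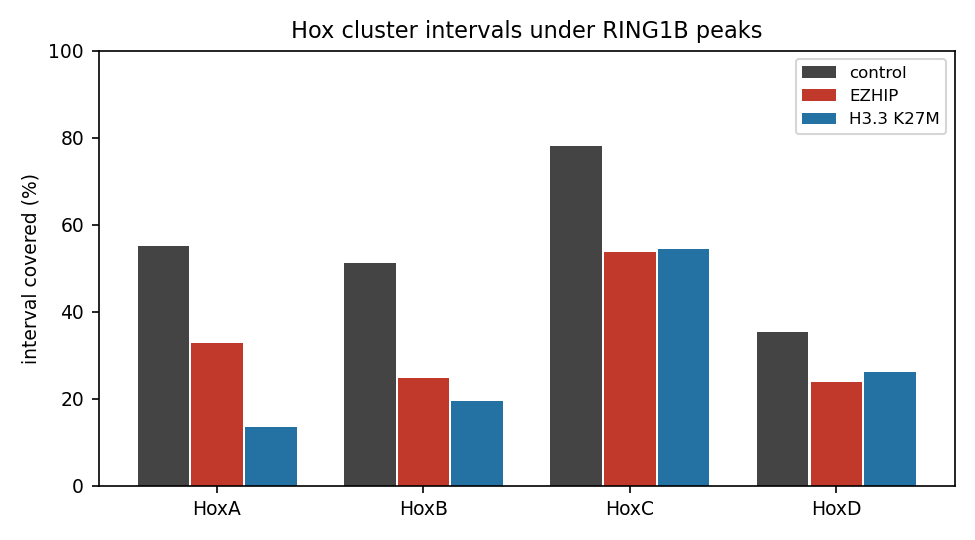
Percentage of each Hox cluster interval, from the outer end of its first to the outer end of its last gene, under RING1B peaks in each list. HoxC bars stand at 78.2% in the control, 53.8% in the EZHIP and 54.5% in the H3.3 K27M list, above those of the other clusters.

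Hox genes of the same number in different clusters are paralogues, and the division between groups 9 to 13 and groups 1 to 8 was made after the HoxC edges were seen. In HoxC the start lay in a peak for 5 of 5 genes of groups 9 to 13 in each list. For groups 1 to 8 it did so for 3 of 4 genes in the control and 0 of 4 with EZHIP or H3.3 K27M. In the other clusters together, 11 of 11 starts of groups 9 to 13 lay in a control peak, 10 in an EZHIP peak and 7 in an H3.3 K27M peak. Of their 19 starts of groups 1 to 8, 11 lay in a control peak, 1 (Hoxb8) in an EZHIP peak and 0 in an H3.3 K27M peak.

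The last covered start was not the same in each cluster. In HoxC both transduced lines kept the start of Hoxc9. In HoxA, EZHIP peaks held the starts of Hoxa13, Hoxa11, Hoxa10 and Hoxa9 and H3.3 K27M peaks that of Hoxa13 alone. In HoxB, EZHIP peaks held the starts of Hoxb13, Hoxb9 and Hoxb8 and H3.3 K27M peaks those of Hoxb13 and Hoxb9, so that the latter ended at the same paralogue group as in HoxC. In HoxD both lines kept Hoxd13 to Hoxd10 and not Hoxd9.

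**Figure D5:**
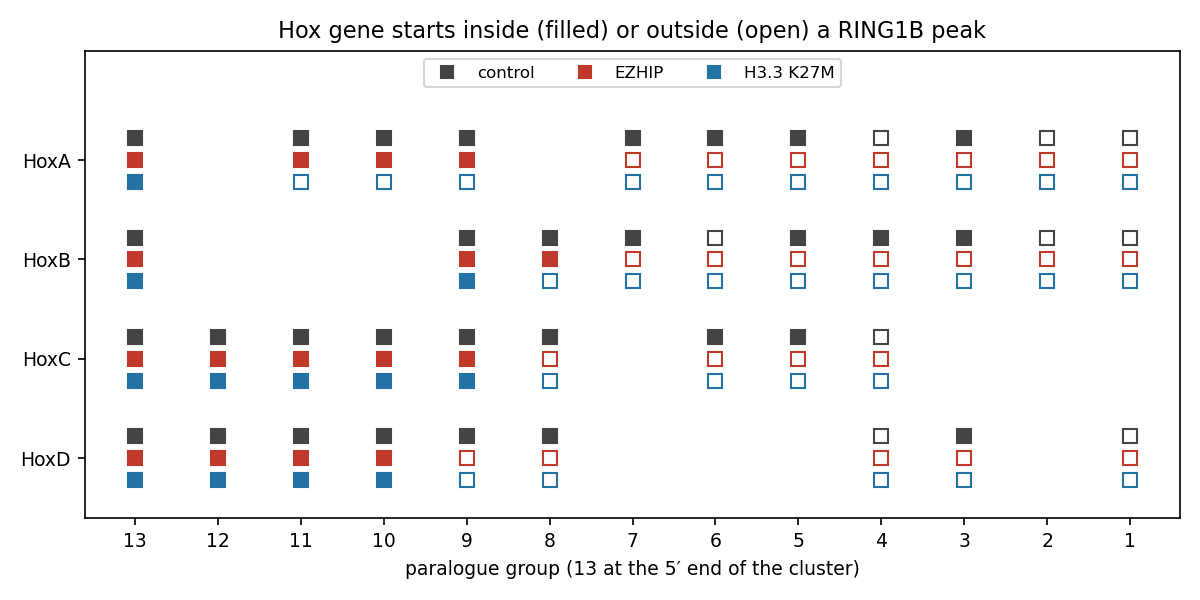
Start of each Hox gene inside (filled) or outside (open) a RING1B peak, by cluster (rows) and paralogue group (13 at left to 1 at right), with 1 square per list. In HoxC the squares of both transduced lines are filled from group 13 to group 9 and open from group 8 on.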

How the data were processed

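The members and gene lists were chosen with earlier results of these data known. Per the methods of the study and the processing notes, the authors crosslinked the cells, digested chromatin with micrococcal nuclease, aligned reads to mm9 and a reference genome with Bowtie 1.0.0 at default parameters and found broad peaks with MOSAiCS-HMM, separately for each library. The deposited lists hold a chromosome, start and end per peak and no score, so depth and counting error are unknown.

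The methods state a minimum size of 1000 bases and a maximum gap of 10000 for Ring1b peaks. The EZHIP and H3.3 K27M lists hold narrower peaks, and all 3 lists hold neighbouring peaks closer than that gap (22 gaps in control cells, 5 with EZHIP and 4 with H3.3 K27M). In the files every start was a multiple of 200 bases and every end lay 1 base before one. Width is end minus start as deposited. Printed starts are 1 base higher, since positions are given 1-based. Genes, transcripts and sequence came from GENCODE vM1 and NCBIM37, the assembly behind mm9. RefSeq names and microRNAs are from tables on GRCm38.p6 and microRNAs were placed on mm9 by exact match. CpG-island-like windows of 500 bases were moved by 100 bases. Overlap required 1 base. Python 3.11.15, numpy 2.4.6 and matplotlib 3.10.9 were used, and the overlap code was checked on simulated peaks. Named genes were the 9 members, other genes in the interval, the nearest protein-coding neighbours and any within 200 kb with a peak, other Hox genes by count, and genes of the fibroblast list with a peak. The paralogue division, the Hox genes named around it, Pdgfra and the repeat at the EZHIP edge were chosen after their values were seen. Other settings varied the distance from the start, the overlap, the transcript start, the interval and the peaks used.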

Additional observations from a re-analysis of the deposited data

How the results depend on the processing

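The 29 values that answer a comparison were recomputed under other settings, which gave 153 values. Of these, 146 stayed within 1.5 times the reported value (for an edge, within 200 bases) and 7 did not. The last covered base in the EZHIP list moved to 102813399 with peaks of at least 1000 bases and with peaks of at least 5000 bases, because both remove the peak over Mir615. The last covered base in the control moved to 102846399 with peaks of at least 5000 bases and with the 286 widest peaks of each list, because both remove the peak at the 3′ end of Hoxc4. When 50% of the gene body had to be covered, the number of protein-coding genes with a peak fell to 251 in control cells, 77 with EZHIP and 117 with H3.3 K27M. The number of HoxC genes with a peak ranged from 8 to 9 in the control, from 5 to 8 with EZHIP and from 5 to 6 with H3.3 K27M. It was 5 with EZHIP in peaks of at least 1000 bases, and within 10000 bases of the start Hoxc8 met the rule in both transduced lines. Coverage relative to the control ranged from 0.643 to 0.705 for EZHIP and from 0.651 to 0.713 for H3.3 K27M. Single-gene coverage was recomputed under 2 settings. With peaks of at least 1000 bases, 3 of 54 values moved, all for EZHIP at Hoxc5 and Hoxc4, to 0. With peaks within 10000 bases merged, chosen after seeing the data, 2 of 54 moved, both for Hoxc6 in the control, to 100% from 53.0% of the body and 63.1% around the start. No paired analysis was possible because each group has 1 library. Precision is limited by the lack of replicates and of read counts.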

Other observations

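Within 200 kb of the interval and outside it, the control list had peaks that no other list had. On the 5′ side a control peak of 25199 bases lay at chromosome 15, 102573201 to 102598399, in intergenic sequence. On the 3′ side control peaks of 1199, 2799 and 2199 bases began at 102889001, 102914801 and 102998401, all in intergenic sequence. Gm17649, a short gene model 282 bases upstream of Hoxc13, was fully covered in each list. Beyond it, the nearest protein-coding gene on the 5′ side was Calcoco1, a coiled-coil coactivator 199 kb away, and that on the 3′ side was Smug1, a DNA repair glycosylase 116 kb away. Calcoco1 and Smug1 had no peak by the rule in any list.

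Inside the interval, Gm20398, a non-coding transcript that runs from within Hoxc10 to within Hoxc5, was covered over 86.7% in the control, 33.0% in the EZHIP and 34.7% in the H3.3 K27M list. None of the 9 genes for TALE homeodomain cofactors of Hox proteins (the Pbx, Meis and Pknox families) had a peak by the rule in the 3 lists, where 3.81% (control), 1.32% (EZHIP) and 1.21% (H3.3 K27M) of all protein-coding genes did, so that a count of 0 of 9 is not set apart from the background.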
